A study of Rattus norvegicus with 12 samples.

Results

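The 7 genes described here are mRNAs that laboratories often use as internal references when they measure other transcripts, namely Ppia, B2m, Hprt1, Tbp, Ywhaz, Eef1a1 and Rplp0. They were chosen by Ensembl identifier, as 7 of the 32883 genes of the count table. No cut on a measured value was used, but earlier results of these data were known when the list was made. The samples were ventricular cardiomyocytes (heart muscle cells) isolated from the hearts of newborn Wistar rats, aged 1 to 2 days, by trypsin digestion and a Percoll gradient. The myocytes were either mock treated or given phenylephrine (PE) for 24 h, a drug that activates alpha-adrenergic receptors and makes heart muscle cells grow. RNA was sequenced from total lysate RNA (input) and from the material that an antibody against Cpeb4 precipitated (IP). Cpeb4 binds cytoplasmic polyadenylation elements in the 3′ untranslated regions of mRNAs and controls their poly(A) tails and translation. The 4 groups were mock input, PE input, mock IP and PE IP, with 3 libraries each. No genetic change, transgene or second agent is named in the labels, and a precipitate from another antibody or from beads alone was not analysed here. The design asks which transcripts are held by Cpeb4 and whether PE alters this. For reference mRNAs the question becomes which of them keep their level in the precipitate and which stay level under PE.

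A reference mRNA is useful only where its own level does not follow the comparison, since every other value is divided by it. The 7 genes have different roles in the cell. Rplp0 encodes the acidic stalk protein of the large ribosomal subunit, and Eef1a1 encodes the elongation factor that brings aminoacyl-tRNA to the ribosome. Both belong to the translation machinery, in which mRNAs of ribosomal proteins and of this elongation factor begin with a terminal oligopyrimidine tract and are translated together. B2m encodes beta-2-microglobulin, the light chain of MHC class I molecules. Ppia encodes cyclophilin A, a prolyl isomerase that binds cyclosporin. Ywhaz encodes the zeta form of the 14-3-3 adaptor proteins, which bind phosphorylated partners. Tbp encodes the TATA-binding protein of the general transcription machinery, and Hprt1 encodes hypoxanthine phosphoribosyltransferase, an enzyme of purine salvage.

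The names were supplied together with the identifiers; neither the count table nor the RefSeq table used here pairs Ensembl identifiers with symbols, so the pairing itself was not checked. Rplp0 is ENSRNOG00000001148, Eef1a1 is ENSRNOG00000009439, B2m is ENSRNOG00000017123, Ppia is ENSRNOG00000027864, Ywhaz is ENSRNOG00000008195, Tbp is ENSRNOG00000001489 and Hprt1 is ENSRNOG00000048561. For the same reason markers of cardiomyocytes and of other heart cells could not be looked up. Several of the genes have many processed copies in the genome. RefSeq's list of 47357 rat genes on the GRCr8 assembly names 20 pseudogenes after Eef1a1, 15 after Ppia, 14 after Rplp0, 3 after Hprt1, 2 after Ywhaz, and 0 each after B2m and Tbp. How reads that match several copies were counted is not given in the sources used here, so the counts of genes with copies are uncertain and levels are compared between libraries, not between genes.

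Library totals ran from 1423334 to 30216559 counts, and 10491 genes passed the low-count filter. The unit of level is CPM, a count after all libraries are brought to the same size, and 2 scales are given. Library totals divide each count by the total of its library. The trimmed mean of M values (TMM) adds a composition factor, which was 0.489 to 0.959 in the 6 inputs and 1.397 to 1.593 in the 6 precipitates. The factors of the pools do not overlap, so every fold change of IP against input reads lower with TMM than with library totals. Over all 10491 genes, the median log2 fold change of IP against input, averaged over both treatments, was 0.16 with TMM and 1.31 with library totals. Changes are therefore also given relative to that median. Some libraries stood apart. Mock input 2, PE input 1 and mock IP 2 had a count for 9434, 8887 and 8455 genes, fewer than each of the other 9, which had 9578 to 11822. A fit on the 8 libraries outside mock replicate 2 and PE replicate 1, of both RNA pools, was taken over from earlier work on these data, where it was chosen with the values in view, and results are given without these 4 where they bear on a value. These are bulk samples, so fewer cells of a type and less RNA per cell cannot be told apart.

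Of the 7 members, 6 passed the filter. Hprt1 (ENSRNOG00000048561) had 0 counts in each of the 12 libraries, as did 52.0% of all genes of the table. A count of 0 allows up to 3 counts, which is 0.0993 CPM in the deepest library and 2.11 CPM in the shallowest, counting error only. The enzyme is made in nearly all tissues, so the row says that no read was assigned to this identifier rather than what the cells express. It gave no comparison.

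**Figure D1:**
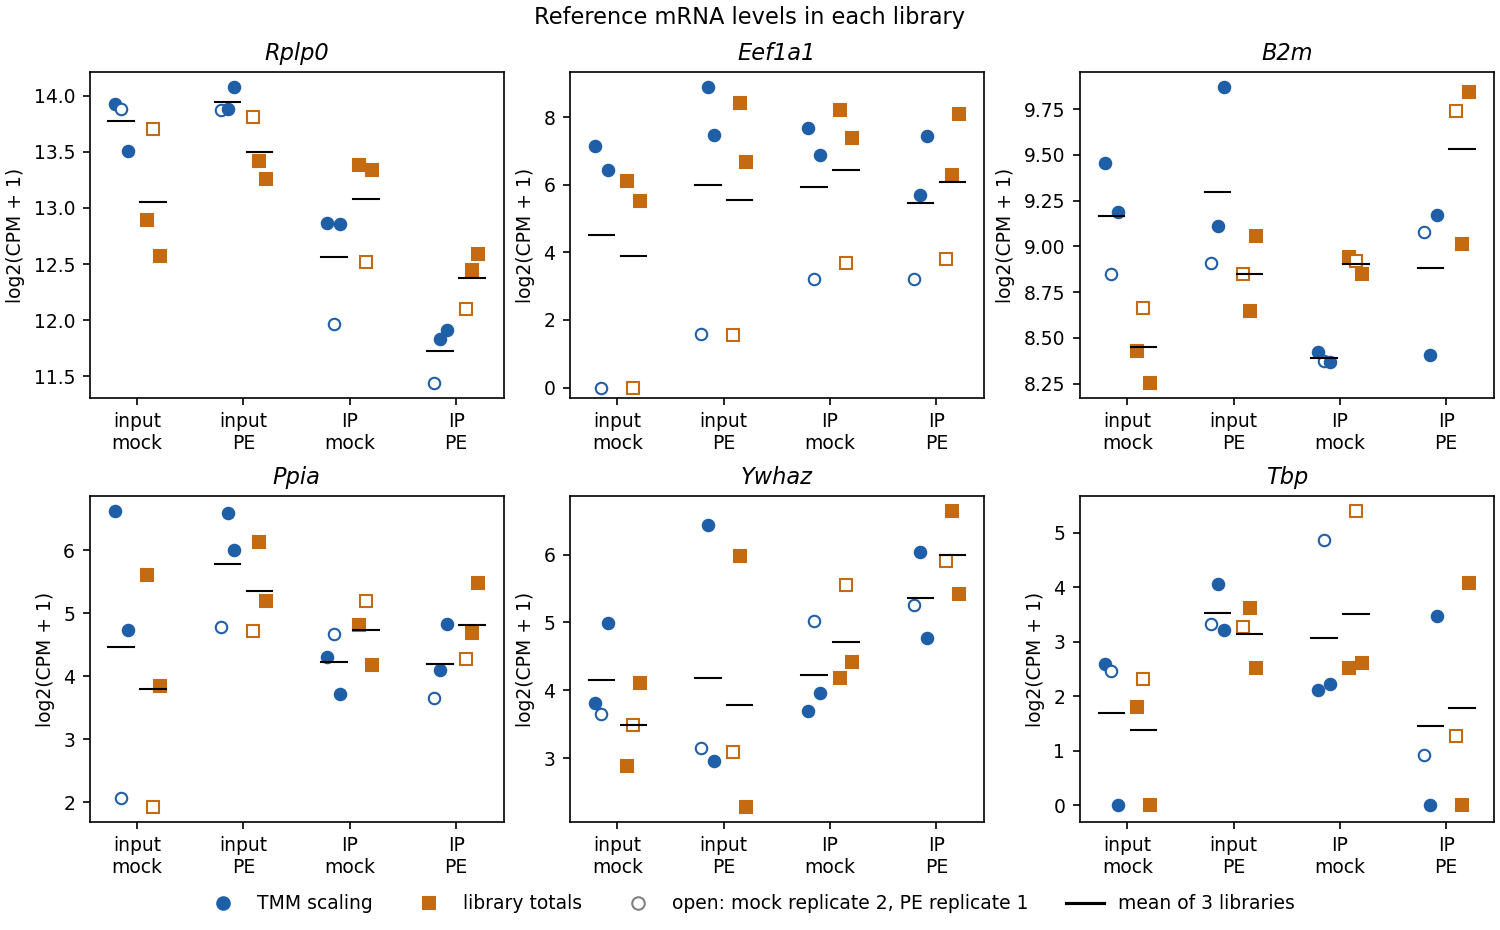
Level of each of the 6 detected reference mRNAs in the 12 libraries, as log2 of CPM plus 1, by group, with a vertical axis of its own in each panel. Circles use TMM scaling and squares library totals; open symbols are mock replicate 2 and PE replicate 1, and bars are means of 3 libraries. On the TMM scale all 6 precipitates lie below all 6 inputs for Rplp0, while open symbols lie lowest in every group for Eef1a1.

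Rplp0, the ribosomal stalk mRNA, was the one member that passed as lower in the Cpeb4 precipitate, in PE cells and averaged over treatments with TMM scaling. It passed in no contrast by library totals. With TMM scaling, Rplp0 stood at 15564, 15130 and 11657 CPM in mock input replicates 1, 2 and 3, and at 14958, 15141 and 17291 CPM in PE input. In the mock precipitates it stood at 7457, 4005.5 and 7407 CPM, and in the PE precipitates at 2778, 3643 and 3856 CPM. All 6 precipitates were thus below all 6 inputs, and the 3 PE precipitates were the lowest of all. The group means were 14117 ± 2142 (SD, n = 3) in mock input, 15797 ± 1298 in PE input, 6290 ± 1979 in mock IP and 3426 ± 571 in PE IP. Both inputs overlapped, while the precipitates were narrowly apart, with 4005.5 CPM as the lowest of mock and 3856 CPM as the highest of PE.

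In PE cells the log2 fold change of IP against input for Rplp0 was -2.20 (SE 0.28, 95% interval -2.79 to -1.62, edgeR adjusted p = 0.000883), a 4.60-fold fall. In mock cells it was -1.17 (SE 0.27, interval -1.73 to -0.60), which missed the threshold (edgeR adjusted p = 0.0556). Averaged over both treatments it was -1.68 (SE 0.19, edgeR adjusted p = 0.000102), or 3.21-fold lower. The labels do not state that input and IP of the same number are pairs. With them taken as pairs, the value in mock cells was -1.21 and passed (edgeR adjusted p = 0.0268). IP lay below input in each of the 3 pairs on the TMM scale. Leaving out any of the 12 libraries in turn kept the call in PE cells and the averaged call, at an edgeR adjusted p of at most 0.00871 and 0.00043. On the 8 libraries left without those 4, Rplp0 also passed in mock cells (log2 fold change -0.90, edgeR adjusted p = 0.00996), as it did with DESeq2 (-1.24, DESeq2 adjusted p = 0.00246). In mock cells it passed in 0 of the 12 fits with 1 library left out (edgeR adjusted p 0.057 to 0.258). With the compared groups alone it did not pass either (edgeR adjusted p = 0.235).

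The size of this fall rests on the scaling. By library totals, Rplp0 stood at 7608, 13335 and 6091 CPM in mock input and at 10697, 5850 and 10351 CPM in mock IP, ranges that overlap. The log2 fold change of IP against input on that scale was -0.01 in mock cells (interval -0.75 to 0.74) and -1.12 in PE cells (interval -1.88 to -0.37, edgeR adjusted p = 0.0688), and averaged it was -0.56 (interval -1.09 to -0.04, edgeR adjusted p = 0.101). In PE cells the inputs of 14349, 10948 and 9815 CPM still lay above all PE precipitates, at 4398, 5565 and 6145 CPM. Relative to the median gene, the averaged log2 fold change was -1.84 with TMM and -1.87 with library totals. A scaling shifts all genes of a library alike, so the likeness of these values, for Rplp0 as for the other members, is given by construction. Its share of all reads was lower in each PE precipitate than in each PE input, without passing the test.

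B2m, the MHC class I light chain, had the smallest SD over the 12 libraries among the members on either scale. B2m stood, with TMM scaling, at 702, 459 and 582 CPM in mock input and at 342, 331 and 329 CPM in mock IP. Every mock precipitate was below every mock input, and the 3 mock precipitates were nearly equal, with a mean of 334 ± 7.17 CPM (SD, n = 3). In PE cells the values were 480, 552 and 936 CPM in input and 539, 338 and 576 CPM in IP, and here the groups overlapped. The log2 fold change of IP against input was -0.80 (SE 0.32, edgeR adjusted p = 0.347) in mock cells and -0.44 (SE 0.32, edgeR adjusted p = 0.738) in PE cells. Averaged, it was -0.62 (SE 0.23, interval -1.095 to -0.14), which missed the threshold (edgeR adjusted p = 0.135). DESeq2 placed the same contrast just past it (-0.66, DESeq2 adjusted p = 0.0488).

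By library totals B2m had the opposite sign. Its values were 343, 405 and 304 CPM in mock input against 491, 483 and 460 CPM in mock IP, so each precipitate was above each input. The averaged log2 fold change was 0.58 (SE 0.24, edgeR adjusted p = 0.0786). Against the median gene, B2m was at -0.78 with TMM and -0.72 with library totals. Without the 4 libraries the averaged value on the TMM scale was -0.86 and passed (edgeR adjusted p = 0.0061).

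Ppia, the cyclophilin A mRNA, had low counts and a wide spread in the input. Ppia stood (TMM scale) at 97.7, 3.19 and 25.5 CPM in mock input, at 26.4, 95.5 and 63.2 CPM in PE input, at 18.8, 24.5 and 12.2 CPM in mock IP and at 11.6, 16.2 and 27.6 CPM in PE IP. The precipitates lay close together, and the inputs ranged from far below to far above them. The range is wider than counting error. Mock input replicates 1 and 2 held 405 and 14 Ppia counts, or 47.8 CPM (exact 95% binomial interval 43.2 to 52.7) and 2.81 CPM (1.54 to 4.72) of library totals. Such intervals cover counting error only, as PCR reads without molecular identifiers are not independent molecules.

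The averaged log2 fold change of Ppia in IP against input was -1.47 (SE 0.59, interval -2.72 to -0.21), and the value did not pass (edgeR adjusted p = 0.183). It passed without mock input replicate 2 (-1.75, edgeR adjusted p = 0.0255) and without the 4 libraries that include it (-1.98, edgeR adjusted p = 0.00103). With no low-count filter it passed as well (-1.45, edgeR adjusted p = 0.0269). It was -0.63 without mock input replicate 1, whose Ppia level was the highest (edgeR adjusted p = 0.652). By library totals the averaged value was -0.14 (interval -1.30 to 1.03), and relative to the median gene it was -1.63 with TMM and -1.44 with library totals.

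Ywhaz, the 14-3-3 zeta mRNA, lay near the median gene in the precipitate. Ywhaz stood (TMM scale) at 13.0, 11.6 and 30.9 CPM in mock input and at 11.9, 31.6 and 14.6 CPM in mock IP. In PE cells it stood at 7.87, 85.6 and 6.80 CPM in input and at 37.4, 64.8 and 26.2 CPM in IP. PE input replicate 2 was the highest of the 12 libraries, the other PE inputs were the lowest, and input and IP overlapped in both treatments on this scale. By library totals Ywhaz stood at 17.1, 46.1 and 20.4 CPM in mock IP, above each mock input (6.37, 10.2 and 16.2 CPM). The PE precipitates, at 59.2, 98.9 and 41.8 CPM, overlapped the PE inputs, at 7.55, 61.9 and 3.86 CPM, and PE IP replicate 2 was then the highest. The averaged log2 fold change was 0.24 (SE 0.59, interval -1.01 to 1.49, edgeR adjusted p = 0.916), which was 0.08 above the median gene. By library totals it was 1.42 (edgeR adjusted p = 0.0841), 0.11 above the median gene on that scale. Changes of 2-fold in either direction lie within the interval of the TMM fit.

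Tbp, the mRNA of a general transcription factor, had 0 to 737 counts in the 12 libraries, with 20 or more in 10 of them. Tbp stood (TMM scale) at 5.07, 4.56 and 0 CPM in mock input, at 9.08, 15.6 and 8.29 CPM in PE input, at 3.33, 28.3 and 3.66 CPM in mock IP and at 0.899, 0 and 10.1 CPM in PE IP. The zeros fell in mock input replicate 3 and PE IP replicate 2, the 2 shallowest libraries, where a count of 0 allows up to 2.11 and 1.35 CPM of library totals. The averaged log2 fold change was 0.10 with an interval of -2.17 to 2.37 (edgeR adjusted p = 0.989), so changes of 4-fold in either direction lie within it and were not detectable at this depth and spread.

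The counts assigned to Eef1a1, the elongation factor mRNA, varied more between libraries than those of almost any gene. RefSeq names 20 pseudogenes after it, and how reads that match several copies were counted is not given. Eef1a1 stood (TMM scale) at 140, 0 and 86.0 CPM in mock input, at 2.02, 472 and 177 CPM in PE input, at 205, 8.21 and 118 CPM in mock IP and at 8.22, 50.9 and 173 CPM in PE IP. The low library of every group was mock replicate 2 or PE replicate 1. These 4 libraries had 0 to 8.22 CPM, and the other 8 had 50.9 to 472 CPM. PE IP replicate 1, the deepest library, held 393 Eef1a1 counts, and mock input replicate 2 held 0 where 3 counts would be 0.602 CPM. Mock input 2, PE input 1 and mock IP 2 were also the libraries with the fewest genes detected. PE IP replicate 1 was not, with a count for 10857 genes. Whether the number of detected genes has a part in these values was not tested.

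For Eef1a1 the averaged log2 fold change of IP against input was -0.47 (SE 1.36, interval -3.54 to 2.61, edgeR adjusted p = 0.935). Without the 4 libraries, which hold the lowest Eef1a1 value of each group, it was -0.56 with an SE of 0.42 (edgeR adjusted p = 0.478). In PE cells alone it was then -1.59 (interval -2.95 to -0.22, edgeR adjusted p = 0.169). With no low-count filter, when 15786 genes were tested, Eef1a1 passed as lower in PE cells (-1.48, SE 0.46, edgeR adjusted p = 0.0461). The same value had an SE of 1.96 with the filter (-1.49, edgeR adjusted p = 0.932). Whether Eef1a1 and Rplp0 differ in IP against input was not tested.

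**Figure D2:**
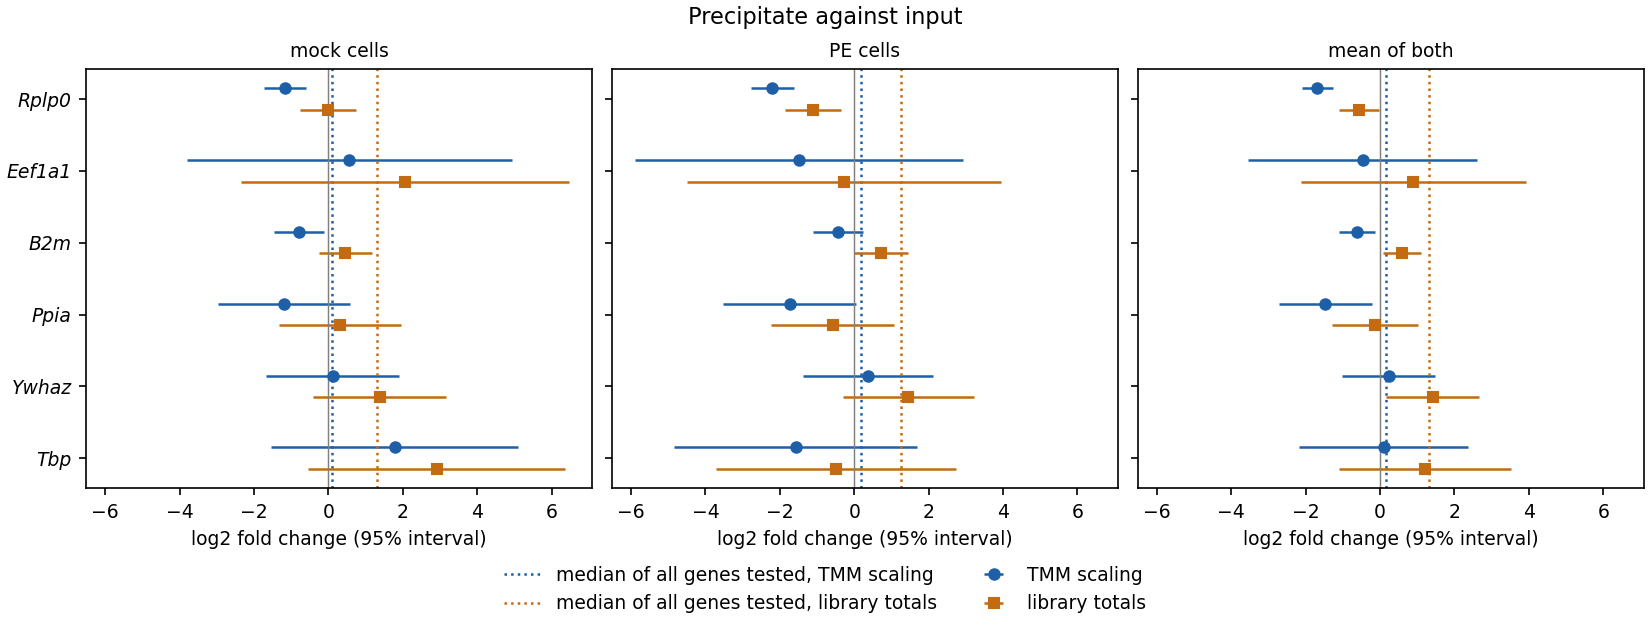
Log2 fold change of precipitate against input for each reference mRNA, with its 95% interval, in mock cells, PE cells and averaged. Dotted lines mark the median of all genes tested on each scale. Rplp0 lies left of that median on both scales, at -1.84 and -1.87 from it when averaged, and Tbp and Eef1a1 have intervals several log2 units wide.

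Counted over the members, 0 of 6 passed in mock cells, where 0.581% of all genes tested were called lower and 0.162% higher (edgeR, adjusted p under 0.05). Without adjustment 2 had a p under 0.05, Rplp0 and B2m, and DESeq2 called Rplp0 alone, beside 1.81% of all genes lower. The fit with pairs also called Rplp0 (background 1.69% lower), as it did in PE cells (2.79%). In PE cells 1 of 6 was called lower, Rplp0, against a background of 1.65% lower and 0.458% higher. Averaged over both treatments it was again Rplp0 alone, against 3.62% lower and 2.26% higher. By library totals 0 of 6 passed, where 8.12% of all genes were called in either direction in mock cells, 6.34% in PE cells and 27.5% averaged. Without adjustment, 0, 2 and 3 members had a p under 0.05 on that scale. With no low-count filter, Rplp0 was called lower in mock cells (1.21% of all genes), Rplp0 and Eef1a1 in PE cells (1.68%), and Rplp0 and Ppia averaged (3.11%). DESeq2 called Rplp0 and B2m lower when averaged (4.25%).

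Without the 4 libraries, when 10735 genes were tested, 2 of 6 were lower in mock cells (Ppia and Rplp0) and the same 2 in PE cells. Averaged, 3 of 6 were lower (Ppia, B2m and Rplp0). The backgrounds of lower calls were then 3.25%, 5.8% and 8.04%. With the full set, the median log2 fold change of the 6 members, averaged over treatments, was -0.54, beside 0.16 for all genes tested. On the TMM scale input and IP did not overlap for B2m and Rplp0 in mock cells, where IP was the lower. Of all genes tested, 7.9% were lower without overlap there (17.8% in either direction). The same held for Rplp0 in PE cells, where 9.24% of genes were lower without overlap (22.2% in either direction). By library totals B2m, Tbp and Ywhaz were higher in every mock precipitate than in every mock input, and Rplp0 overlapped. There 33% of all genes were higher without overlap (34% in either direction). In PE cells on that scale Rplp0 was again lower without overlap, as were 1.81% of all genes (39.1% in either direction).

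Under PE none of the members passed in either RNA pool. In the input Rplp0 and B2m had the smallest changes and the narrowest intervals. The log2 fold change of PE against mock in input was 0.16 for Rplp0 (SE 0.26, interval -0.40 to 0.72) and 0.18 for B2m (SE 0.32, interval -0.50 to 0.85). On this scale a 2-fold change in either direction lies outside both intervals. By library totals the values were 0.38 (-0.37 to 1.12) for Rplp0 and 0.40 (-0.31 to 1.12) for B2m, and a 2-fold increase lies within them. Ppia was at 0.54 (interval -1.21 to 2.28), Ywhaz at 0.89 (-0.92 to 2.69), Eef1a1 at 1.53 (-2.92 to 5.97) and Tbp at 1.67 (-1.63 to 4.98). All 6 estimates were positive, and all 6 intervals held 0. The Eef1a1 value was 0.26 without PE input replicate 2 and 2.42 without mock input replicate 1. DESeq2 called 0 members, but no DESeq2 adjusted p was available for Tbp in this or the other comparisons. For each member the edgeR adjusted p was 1.00, and 0 members had an unadjusted p under 0.05. Of all genes tested, 0.00953% were called.

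Tbp alone did not overlap between the input groups, with every PE input above every mock input on both scales. In the same direction, 5.68% of all genes tested did not overlap on the TMM scale and 8.97% by library totals. In either direction the shares were 9.86% and 10.9%. On the TMM scale the nearest Tbp values were 5.07 CPM in mock input replicate 1 and 8.29 CPM in PE input replicate 3. These rest on 21 and 139 counts. By library totals the nearest values were those of mock input replicate 2, 4.01 CPM from 20 counts (exact 95% binomial interval 2.452 to 6.201), and of PE input replicate 3, 4.71 CPM (3.96 to 5.56), whose intervals overlap.

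**Figure D3:**
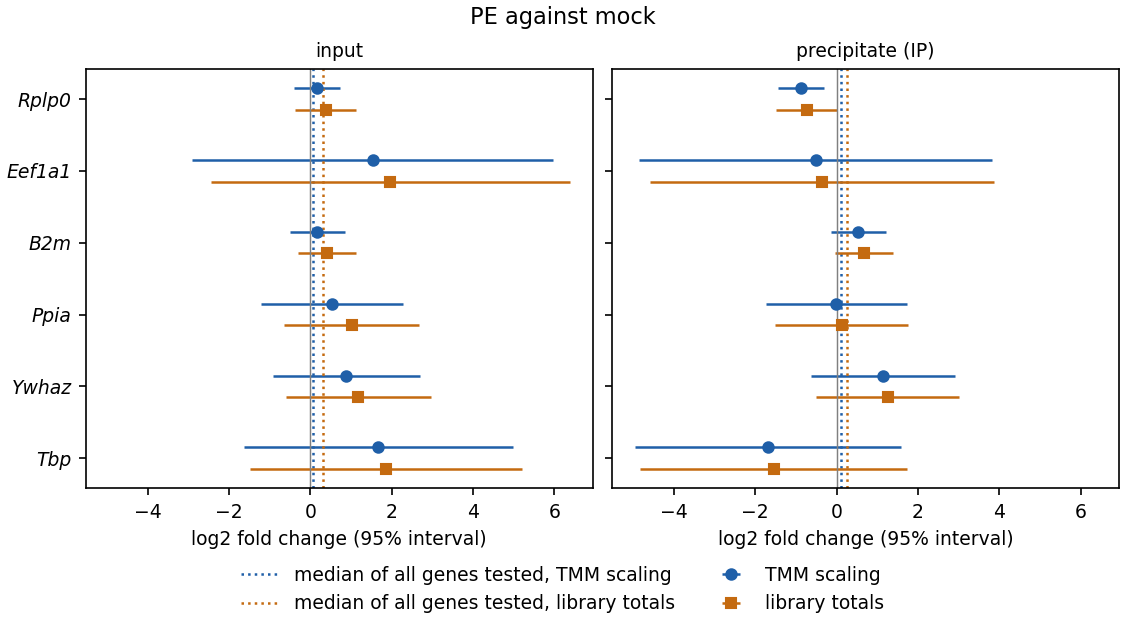
Log2 fold change of PE against mock for each reference mRNA in input and in precipitate, with 95% intervals, on both scales; dotted lines are medians of all genes tested. In input the intervals of Rplp0 and B2m are the narrowest and include 0; in precipitates Rplp0 lies at -0.88 and B2m at 0.54 with TMM scaling.

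In the precipitates Rplp0 and B2m lay on opposite sides. The log2 fold change of PE against mock in IP was -0.88 for Rplp0 (SE 0.27, interval -1.44 to -0.31, unadjusted p = 0.00457, edgeR adjusted p = 0.725). For B2m it was 0.54 (SE 0.32, interval -0.14 to 1.21, edgeR adjusted p = 1.00). The others were at -0.01 for Ppia (interval -1.75 to 1.73), 1.14 for Ywhaz (-0.63 to 2.91), -0.51 for Eef1a1 (-4.84 to 3.82) and -1.68 for Tbp (-4.95 to 1.59), each with an edgeR adjusted p of 1.00. Rplp0 was the 1 member at an unadjusted p under 0.05, and 0.00953% of all genes tested were called by edgeR. DESeq2 called 0 members, with Tbp not assessed. Only Rplp0 did not overlap between mock and PE precipitates on the TMM scale, where 14.9% of all genes tested did not. It was lower under PE, as were 6.3% of all genes without overlap. By library totals only B2m did not overlap, at 516 to 917 CPM in PE IP above 460 to 491 CPM in mock IP. There 15.3% of all genes did not overlap, and 10.9% were higher under PE. On that scale Rplp0 overlapped, with 5850 CPM as the lowest of mock and 6145 CPM as the highest of PE. Without the 4 libraries, Rplp0 passed as lower under PE (-0.998, edgeR adjusted p = 0.0323), when 0.177% of all genes were called lower. The precipitates then had 2 libraries per group.

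The difference between the IP contrasts of PE and mock cells was -1.04 for Rplp0 on the log2 scale (SE 0.38, interval -1.83 to -0.24, unadjusted p = 0.0136, edgeR adjusted p = 1.00). It was 0.36 for B2m (interval -0.59 to 1.31), 0.25 for Ywhaz (-2.25 to 2.75), -0.54 for Ppia (-3.01 to 1.92), -2.04 for Eef1a1 (-8.24 to 4.15) and -3.35 for Tbp (-8.00 to 1.30). None passed, as for all genes tested (0% called), and DESeq2 called 0 members, with Tbp not assessed. The lower value of Rplp0 in PE cells is therefore a measured value and not a shown difference between treatments.

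A ratio of 2 genes within a library does not depend on any scaling. The count of B2m per 1000 Rplp0 counts was 45.1, 30.4 and 49.9 in mock input and 32.1, 36.5 and 54.1 in PE input. In mock IP it was 45.9, 82.5 and 44.5, and in PE IP it was 194, 92.7 and 149. Mock precipitates overlapped the inputs, and the 3 PE precipitates were above all other libraries. The means were 41.8 ± 10.2 (SD, n = 3) in mock input, 40.9 ± 11.7 in PE input, 57.6 ± 21.6 in mock IP and 145 ± 50.8 in PE IP. A transcript divided by B2m thus reads lower in PE precipitates, relative to input, than the same transcript divided by Rplp0. Most genes moved this way against Rplp0: in PE cells 65% of the other genes tested had a ratio to Rplp0 that was higher in every precipitate than in every input. In precipitates, 28.1% had a ratio higher in every PE than in every mock library. This pair was singled out after its values were seen, and no test was made of it.

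**Figure D4:**
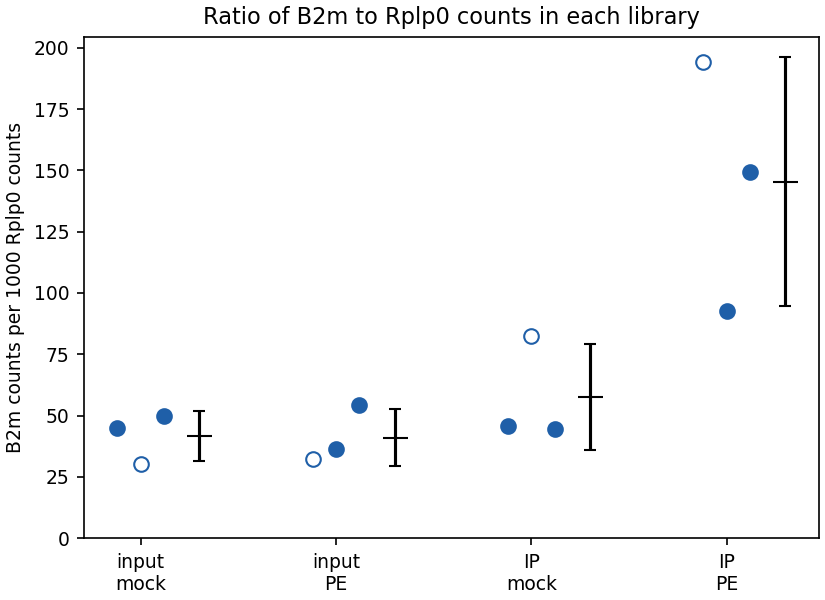
Counts of B2m per 1000 counts of Rplp0 in each of the 12 libraries, by group, a ratio that no library scaling alters. Open circles are mock replicate 2 and PE replicate 1, and bars are the mean and SD of 3 libraries. The 3 PE precipitates, at 92.7 to 194, lie above the other 9 libraries, which range from 30.4 to 82.5.

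Against Rplp0 the other members were more scattered. Ywhaz had 0.393 to 5.65 counts per 1000 Rplp0 counts in the inputs, 1.598 to 7.886 in mock IP and 6.79 to 17.8 in PE IP. Each PE precipitate was above each PE input, as for 65% of the other genes tested. Tbp had 0 to 0.326 counts per 1000 Rplp0 counts in mock input, 0.479 to 1.03 in PE input, 0.446 to 7.06 in mock IP and 0 to 2.61 in PE IP. Its ratio was higher in every mock precipitate than in every mock input, as for 34.1% of genes, and higher in every PE input than in every mock input, as for 3.44%. Ppia overlapped throughout, with 0.211 to 6.31 in the inputs and 1.65 to 7.15 in the precipitates. Eef1a1 overlapped too, with 0 to 31.2 in the inputs and 2.05 to 44.8 in the precipitates. Log2 ratios were taken with 0.5 added to each count. A count of 0, in 1 library for Eef1a1 and 2 for Tbp, makes the ratio depend on that 0.5 and on depth. Of the 15 pairs of the 6 members, the SD of the log2 ratio over 12 libraries was lowest for B2m and Rplp0, at 0.86. It was highest for Tbp and Eef1a1, at 4.12. Within the 6 inputs the B2m to Rplp0 ratio had an SD of 0.35, and within the 6 precipitates it had an SD of 0.87.

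The spread of each member around its group means was described as the pooled SD of log2 CPM within groups, with 1 CPM added. On the TMM scale it was 0.31 for Rplp0 and 0.36 for B2m, beside a median of 0.98 over all genes tested and of 0.47 over the 1068 genes with a mean of at least 100 CPM. It was 1.15 for Ywhaz, 1.29 for Ppia, 1.42 for Tbp and 3.19 for Eef1a1. Rplp0 and B2m were thus steadier within a group than the median abundant gene, and the other 4 were less steady than the median gene. Over all 12 libraries, differences between groups included, the SD was 0.48 for B2m and 0.99 for Rplp0, and B2m then ranked lower than all but 6.75% of genes. Eef1a1 had the third largest SD of the 10491 genes (2.79).

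The order of stability depended on the libraries included. Without the 4 libraries, the within-group SD of Eef1a1 was 0.88 and that of Rplp0 0.16, beside a median of 0.60 over all genes. These 4 hold the lowest Eef1a1 value of each group and were chosen with values in view. The smaller SD of Eef1a1 follows from leaving them out. B2m, at 0.39, was then above the median of 0.27 over abundant genes. Ywhaz and Tbp stayed wide, at 1.38 and 1.56. The mean SD of a member's log2 ratios to the other 5, with 0.5 added to each count, was also taken. Over 12 libraries it was 1.79 for B2m, 1.82 for Ppia, 1.96 for Rplp0, 2.21 for Ywhaz, 2.62 for Tbp and 3.45 for Eef1a1. Counts of 0 for Tbp and Eef1a1 enter all of these values. Over the 8 libraries the mean SD was lowest for Eef1a1, at 1.18, but close to B2m at 1.197 and to Ppia and Rplp0 at 1.23. Ywhaz was at 1.90 and Tbp at 2.06. The place of Eef1a1 in this order follows from the same choice of libraries.

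**Figure D5:**
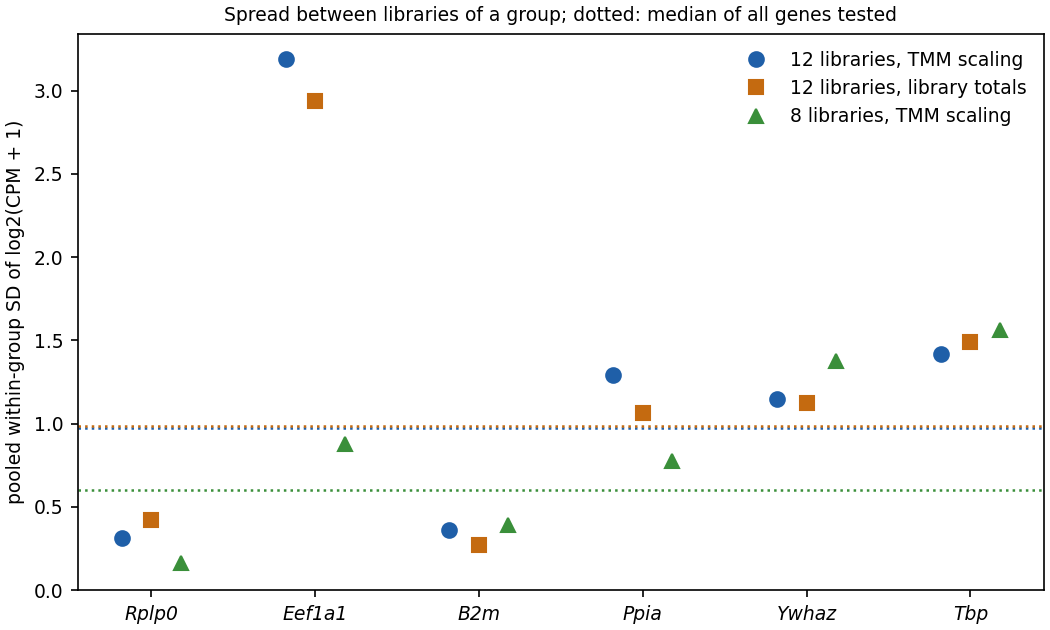
Pooled within-group SD of log2(CPM + 1) for each reference mRNA, over 12 libraries on both scales and over 8 libraries without mock replicate 2 and PE replicate 1. Dotted lines mark the median of all genes tested in the same colour. Rplp0 and B2m lie below the median in each case, and Eef1a1 drops from 3.19 to 0.88 when the 4 libraries are left out. Those 4 hold the lowest Eef1a1 value of each group.

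The genes with the pattern most like a member were sought among 5856 other genes with a mean of at least 10 CPM, by Pearson r of log2 CPM over the 12 libraries. The highest values were those of 2 genes with Rplp0, ENSRNOG00000017418 and ENSRNOG00000019007, both with r = 0.98. The most similar gene to each other member had r = 0.93 for Eef1a1, 0.91 for B2m, 0.86 for Ppia, 0.86 for Tbp and 0.83 for Ywhaz. All points share the same libraries and depths, so these values describe the libraries and carry no test.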

How the data were processed

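The values are raw counts per gene, deposited by the authors as 1 table with Ensembl rat identifiers and no normalization. Libraries came from a 3′ end sequencing kit, per the labels' protocols, so counts were not divided by gene length. Per the submitters' processing notes the tools were featureCounts 1.6.4, STAR 2.7, cutadapt 2.5 and DESeq2, with the build Rnor_6.0. Their options, including strand and the treatment of reads with several matches, are not given in the sources. The 32883 blank lines of the table were skipped. Each column name gives the RNA pool, treatment and replicate number of 1 sample. The labels do not state that replicates are separate cultures, so p-values cover the spread of these samples only, possibly technical. No 2 libraries of a group were the same within sampling noise (lowest chi-square per degree of freedom 7.79).

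Tests used edgeR 4.0.16 in R 4.3.3 (TMM factors, filterByExpr, robust quasi-likelihood F-test) on all 12 libraries with 4 group means, adjusted by Benjamini-Hochberg over 10491 genes, with a threshold of 0.05. SE is the size of the log2 fold change divided by the square root of F. Input and IP of 1 number share a letter in the column names, with no statement of what it marks. Deviations from the group means of such pairs correlated at 0.266, 0.325 and 0.196 in mock cells. In PE cells they correlated at 0.316, 0.0144 and 0.343. Libraries of unlike number reached 0.233 in mock cells (input 3 with IP 1) and 0.344 in PE cells (input 2 with IP 3). Of the 6 inputs, 4 correlated best with the IP of their own number. These values do not settle whether the numbers mark pairs. The fit with pairs is given beside mock results where it changes a call. The fit was run on simulated counts with known changes, for the averaged IP contrast only. The simulation held no composition difference between input and IP and no deviant libraries, so it does not bear on these. The members and lists were chosen with earlier results of these data known. All members are named, and the most similar genes are those with the highest r. Lists of other reference genes, translation genes and cell type markers, held by symbol, were not used here because the RefSeq table holds 0 Ensembl identifiers. Alternatives were DESeq2 1.42.0 and its size factors, library totals, no filter, the compared groups alone, a replicate block, each library left out and, added after seeing the data, the 8 libraries without mock replicate 2 and PE replicate 1.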

Additional observations from a re-analysis of the deposited data

How the results depend on the processing

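At 0 counts Hprt1 gave no comparison, and the 2 libraries with 0 Tbp counts were the shallowest. Counts of members called in IP against input depended on the settings. In mock cells (0 of 6) the count was 1 with DESeq2 size factors, no low-count filter, the DESeq2 Wald test or the replicate block, and 2 without the 4 libraries. In PE cells (1 of 6) it was 0 by library totals and 2 with no filter or without the 4 libraries. Averaged (1 of 6) it was 0 by library totals, 2 with no filter or the DESeq2 Wald test, 3 without the 4 libraries, and 1 to 2 when 1 library was left out. For PE against mock in IP (0 of 6) it was 1 without the 4 libraries. The cause was not tested. Counts for PE against mock in input and for the change of IP enrichment were 0 throughout.

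With 1 library left out, 398 of 432 single log2 fold changes kept their direction and their side of the threshold. Under the other settings 201 of 234 did. In these 2 sets, 33 and 18 changed sign, and 1 and 13 gained a call. The remaining 2, both under the other settings, lost a call (Rplp0 by library totals). By library totals, IP against input was 0.31 for Ppia and 0.45 for B2m in mock cells, 0.72 for B2m in PE cells, and 0.58 for B2m and 0.89 for Eef1a1 averaged. Without the 4 libraries Ywhaz was -0.66 in mock cells, -0.045 in PE cells and -0.35 averaged, and Tbp averaged was -0.55. For PE against mock in IP, Ppia was 0.042 with DESeq2 size factors, 0.043 with the DESeq2 Wald test, 0.12 by library totals and 0.49 without the 4 libraries, when Tbp was 0.52. The change of IP enrichment was then 0.18 for Ppia.

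With the replicate block, averaged values were -0.69 for Tbp and 0.43 for Eef1a1, and Ppia in IP was 0.022 for PE against mock. Rplp0 in mock cells passed with the block (-1.21, edgeR adjusted p = 0.0268). The block changed no other call of a member.

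With 1 library left out, IP against input in mock cells ranged from -1.75 to 0.48 for Ppia, -0.42 to 0.66 for Ywhaz and -0.25 to 1.45 for Eef1a1, and in PE cells from -0.13 to 2.54 for Ywhaz. Averaged, it ranged from -1.30 to 0.39 for Tbp, -0.027 to 1.32 for Ywhaz and -1.17 to 0.17 for Eef1a1. PE against mock in input ranged from -0.021 to 2.21 for Ppia, -0.17 to 0.36 for B2m and -1.30 to 1.43 for Ywhaz, and in IP from -0.43 to 0.25 for Ppia, -4.48 to 0.077 for Tbp and -1.92 to 0.30 for Eef1a1. The change of IP enrichment ranged from -2.22 to 0.012 for Ppia and -0.30 to 2.44 for Ywhaz.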

Other observations

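The 7 reference genes together held 0.534% to 1.49% of the counts of a library, and Rplp0 alone made up 82.3% to 96.9% of these counts. The lowest shares of Rplp0 among them were 82.3%, 82.6% and 88.6%, in the 3 PE precipitates, and those of the 6 inputs were 92.5% to 96.9%. Across the 12 libraries the log2 CPM values of Ppia and Eef1a1 had a Pearson r of 0.67, B2m and Ppia 0.55, and Ywhaz and Rplp0 -0.49. These values describe 12 libraries that share 4 groups and carry no test.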
